A study of Homo sapiens with 6 samples.

Results

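The immediate early transcription factors described here are 10 genes of the AmpliSeq panel: 4 of the FOS family (FOS, FOSB, FOSL1 and FOSL2), 3 of the JUN family (JUN, JUNB and JUND), EGR1, IER2 and ATF3. They were taken by symbol from the 20802 genes of the panel, and all 10 were found. Their transcripts were measured in K562, a human cell line grown from chronic myeloid leukemia in blast crisis. Cells were stably infected with a pLKO.1-puro lentivirus that carried an shRNA, either scrambled (shSc, 3 libraries labelled sh Scramble) or shNPM300, directed against NPM (NPMKD, 3 libraries labelled sh NPM), and clones of both groups were selected with 2 µg/mL puromycin. The study's text says that 3 NPMKD and 2 shSc samples were kept but not which shSc samples, and shSc replicates 1 and 2 were taken from the mean levels it lists. These 5 libraries were tested here, and shSc replicate 3 is given beside them.

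Immediate early genes are the genes that a cell switches on within minutes of a stimulus, without first making new protein. Growth factor and stress signals reach them through the MAP kinases, which act on SRF and its ELK cofactors at CArG boxes and on CREB and ATF proteins at cAMP response elements. FOS and JUN proteins pair through leucine zippers to form the AP-1 factor, while EGR1 is a zinc finger protein that binds GC-rich sites. In K562 this signaling has a constant source, since the BCR-ABL kinase of chronic myeloid leukemia drives the RAS and MAP kinase pathway.

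Promoter DNA just before the start site is shown for EGR1, FOS and JUN. EGR1 had the largest log2 fold change among the tested members. FOS is the founding AP-1 member, and JUN was near 0 in every library but shSc replicate 3. Each sequence is the 250 bases before the RefSeq start site (table build GRCh38.p14), 5′ to 3′ along the gene, and each matched GRCh37 exactly at 1 place, which gives the coordinates.
EGR1 promoter, chr5:137800918-137801167 (plus strand): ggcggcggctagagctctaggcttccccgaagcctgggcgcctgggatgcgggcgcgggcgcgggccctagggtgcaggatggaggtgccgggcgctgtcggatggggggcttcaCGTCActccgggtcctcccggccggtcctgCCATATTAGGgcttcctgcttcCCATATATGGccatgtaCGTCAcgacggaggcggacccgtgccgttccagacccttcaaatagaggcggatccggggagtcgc
FOS promoter, chr14:75745281-75745530 (plus strand): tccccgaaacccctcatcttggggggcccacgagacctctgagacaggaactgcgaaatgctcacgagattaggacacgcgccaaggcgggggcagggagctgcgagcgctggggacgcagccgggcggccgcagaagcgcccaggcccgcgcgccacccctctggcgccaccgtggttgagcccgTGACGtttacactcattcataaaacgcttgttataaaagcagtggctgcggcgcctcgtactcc
JUN promoter, chr1:59249720-59249969 (minus strand): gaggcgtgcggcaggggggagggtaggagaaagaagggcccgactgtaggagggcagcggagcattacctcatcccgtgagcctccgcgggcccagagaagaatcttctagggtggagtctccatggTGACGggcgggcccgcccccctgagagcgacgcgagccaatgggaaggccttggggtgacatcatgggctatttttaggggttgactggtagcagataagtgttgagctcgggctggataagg
Capitals mark CArG boxes and TGACG, the core of the cAMP response element, on either strand. The EGR1 promoter held CArG boxes from -105 to -96 and from -83 to -74, and cores from -135 to -131 and from -66 to -62. FOS had a core from -64 to -60 and TATAAA from -33 to -28, and JUN had a core from -123 to -119.

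A promoter entry was found for 9 of the 10 members, FOSL1 being the exception. On either strand, a CArG box was found in 1 of these 9 and in 1.14% of 27305 promoters of the same length. The core TGACG was in 8 of 9, against 21.7% of all promoters, and TATAAA in 4 of 9, against 11.1%. The share over all promoters took the first entry of each gene, whereas ATF3 had more than 1 entry and any could count. Its TATAAA, from -230 to -225, was not in its first entry. The full element TGACGTCA, which contains the core, was in JUND alone (1.77% of all promoters), and the EGR site GCGNGGGCG in EGR1 alone (8.25%). No member had the AP-1 site TGANTCA in this window (6.6% of all promoters). These are matches of letters, and binding was not measured at them. Other spellings of these sites, and bases outside the window, were not searched.

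Every level is in RPM, a gene's reads as a share of its library, scaled to the same total in each. One amplicon stands for each gene, so RPM compares libraries and not genes. Reads per library ranged from 8842344 (shSc replicate 3) to 18981902 (NPMKD replicate 3), so that 3 reads, the limit a count of 0 allows by counting error, were worth 0.158 to 0.339 RPM. NPM1, the target of the shRNA, was at 3856 and 2968 RPM in shSc replicates 1 and 2, 3146 RPM in shSc replicate 3, and 1302, 1168 and 654.7 RPM in NPMKD. Its log2 fold change was -1.76 (standard error 0.35, limma adjusted p = 0.158), which did not pass with edgeR either (adjusted p = 0.162) and passed with DESeq2 (adjusted p = 0.00145). GAPDH, a glycolytic enzyme, had a mean of 4239 ± 1228 RPM over shSc replicates 1 and 2 (SD, n = 2) and of 4081 ± 588.7 RPM over the NPMKD libraries (SD, n = 3). All 10 K562 markers reached 1 RPM. Log2 values of shSc replicate 3 correlated across genes with the other libraries at 0.839 to 0.879, and those of the others among themselves at 0.922 to 0.972.

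Of the 10 members, 7 reached 1 RPM in 2 or more of the 5 libraries and were tested with limma on log2(RPM + 0.5), with Benjamini-Hochberg adjustment over the 11554 genes that met this filter. None of the 7 passed the threshold of 0.05, and 1, EGR1, had an unadjusted p under 0.05. Among all tested genes 0.13% passed and 7.14% had an unadjusted p under 0.05. On the recovered reads, edgeR called no member (0.0952% of all genes), and DESeq2 called EGR1 (1.64% of all genes). The log2 fold change was above 0 for 6 of the 7, with a median of 0.34, while the median of all tested genes was 0.01. FOSB, JUN and IER2 were below the filter. Whether the libraries of a group stem from different cultures is not stated, and the spread behind each p-value may be technical. Loss of NPM, differences between clones and any other effect of the single shRNA cannot be told apart.

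**Figure D1:**
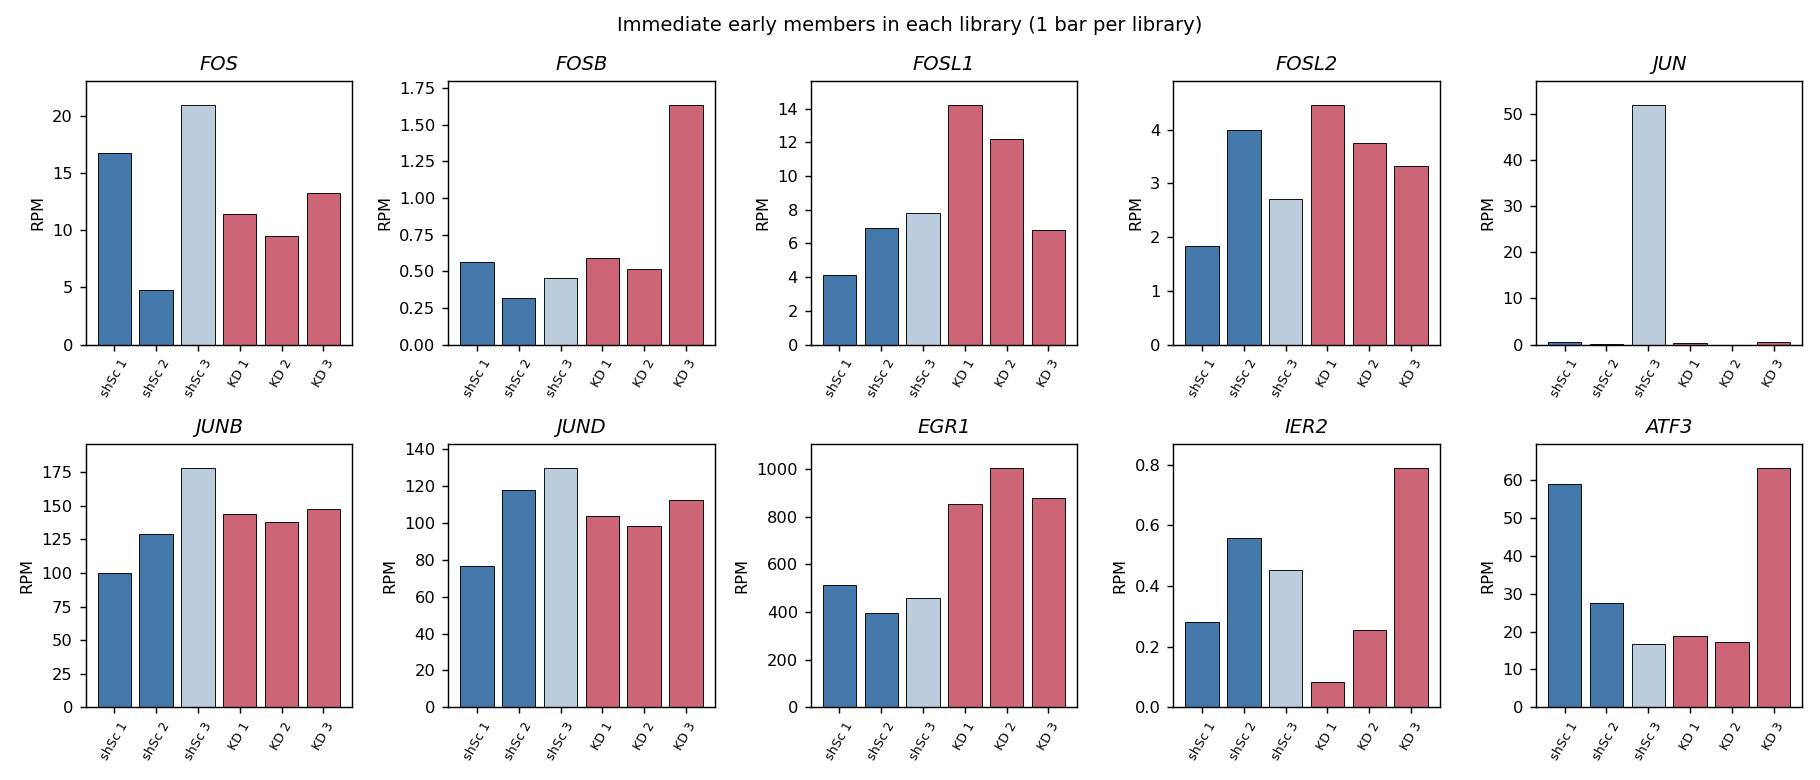
Level of each member (RPM, 1 bar per library, axis from 0 and its own scale for each gene) in shSc 1 to 3 and NPMKD (KD) 1 to 3; the pale bar is shSc replicate 3. EGR1 is at 854.5 RPM or more in the 3 NPMKD libraries and at 510.7 RPM or less in the 3 shSc libraries, JUN is high in shSc replicate 3 alone, and ATF3 is high in shSc replicate 1 and NPMKD replicate 3.

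EGR1 was the tested member with the largest log2 fold change and the one whose groups stood apart in all 6 libraries. EGR1 encodes the zinc finger factor induced by serum, growth factors and differentiation signals, and lies on chromosome 5 of GRCh37 (137801168 to 137804992, plus strand, 2 exons). It was at 510.7 and 395.0 RPM in shSc replicates 1 and 2 and at 457.5 RPM in shSc replicate 3. In NPMKD it was at 854.5, 1005 and 875.8 RPM. Each NPMKD library was above each shSc library, in 9 of 9 pairs, and shSc replicate 3 lay between its own replicates. The share of tested genes that were likewise higher without overlap in all 6 libraries was 9.55%.

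Mean EGR1 over the tested libraries was 452.9 ± 81.8 RPM with the scrambled shRNA (SD, n = 2) and 911.7 ± 81.3 RPM with shNPM300 (SD, n = 3), a ratio of 2.01. The log2 fold change was 1.02 (standard error 0.24, 95% confidence interval 0.46 to 1.57). Its limma p was 0.00299 before adjustment and 0.256 after it, so it did not pass. A log2 fold change at least as high was found for 2.5% of tested genes, and a p at least as low for 1.16%. With shSc replicate 3 added, the log2 fold change was 1.01 (limma adjusted p = 0.218, in a fit where 0.0256% of genes passed). EGR1 passed with DESeq2 (adjusted p = 0.0213) and did not with edgeR (adjusted p = 0.301).

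The genes whose profile over the 5 libraries was most like that of EGR1 were STK10, STOM and ST8SIA6. Likeness was measured as the root mean square difference between log2 profiles centred on their own means, over 9431 genes, and was 0.093, 0.111 and 0.127 for these genes. STK10, a serine/threonine kinase of lymphocytes, was at 11.5 and 9.57 RPM in shSc replicates 1 and 2, 12.1 RPM in replicate 3, and 18.6, 21.1 and 21.5 RPM in NPMKD. STOM, which encodes the red cell membrane protein stomatin, was at 47.0 and 31.7 RPM in shSc replicates 1 and 2, 47.3 RPM in replicate 3, and 66.1, 73.5 and 71.6 RPM in NPMKD. ST8SIA6, a sialyltransferase, was at 3.03 and 2.79 RPM in shSc replicates 1 and 2, 2.37 RPM in replicate 3, and 6.65, 6.57 and 6.80 RPM in NPMKD. These 3 were picked for this pattern, so their separation of the groups is a description.

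In the FOS family, 4 proteins that bind DNA only as partners of JUN, none of the 3 tested genes passed. FOSL1 (FRA-1), itself a target of AP-1 in many cells, had the largest difference of the family. It lies on chromosome 11 (65659520 to 65668044, minus strand, 4 exons) and was at 4.16 and 6.94 RPM in shSc replicates 1 and 2, 7.80 RPM in replicate 3, and 14.2, 12.2 and 6.80 RPM in NPMKD. NPMKD replicates 1 and 2 were above all shSc libraries, and NPMKD replicate 3 was within the shSc range. Mean FOSL1 was 5.55 ± 1.97 RPM for the tested shSc libraries (SD, n = 2) and 11.1 ± 3.84 RPM for NPMKD (SD, n = 3). The log2 fold change of FOSL1 was 0.91 (standard error 0.42, 95% confidence interval -0.07 to 1.90, limma adjusted p = 0.741).

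FOS lies on chromosome 14 (75745529 to 75748933, plus strand, 4 exons). It was at 16.7 and 4.79 RPM in shSc replicates 1 and 2 and 20.9 RPM in replicate 3, and at 11.4, 9.47 and 13.2 RPM in NPMKD. The NPMKD libraries lay between the lowest and the highest shSc library, and shSc replicate 2, with 60 reads, was the low one. The log2 fold change was 0.30 (standard error 0.51, 95% confidence interval -0.87 to 1.47, limma adjusted p = 0.935). Its sign depended on the shSc library: the log2 fold change was 1.15 without shSc replicate 1 and -0.55 without shSc replicate 2, and neither passed with limma.

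FOSL2 (FRA-2), which lies on chromosome 2 (28615315 to 28640184, plus strand, 4 exons), was at 1.83 and 3.99 RPM in shSc replicates 1 and 2, 2.71 RPM in replicate 3, and 4.46, 3.75 and 3.32 RPM in NPMKD. The groups overlapped, and the log2 fold change was 0.42 (standard error 0.42, limma adjusted p = 0.902). FOSB, on chromosome 19 (45971253 to 45978437, plus strand, 4 exons), is a FOS relative best known from neurons. It had 8, 4 and 4 reads in shSc replicates 1 to 3 and 7, 6 and 31 reads in NPMKD replicates 1 to 3. Only NPMKD replicate 3 reached 1 RPM, at 1.63 RPM (exact Poisson 95% interval 1.11 to 2.32), and the intervals of the other 5 libraries ended at 0.817 to 1.21 RPM. FOSB was below the filter, and its groups were not tested.

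The JUN family provides the partners of the FOS proteins, and its 3 genes have no intron. JUNB, often an antagonist of JUN and a regulator of myeloid growth, lies on chromosome 19 (12902300 to 12904129, plus strand). It was at 99.6 and 129.3 RPM in shSc replicates 1 and 2 and at 144.1, 138.1 and 147.9 RPM in NPMKD. NPMKD was above shSc without overlap in these 5 libraries, as were 12.3% of tested genes. shSc replicate 3, at 178.3 RPM, was above all NPMKD libraries. The log2 fold change of JUNB was 0.34 (standard error 0.23, 95% confidence interval -0.20 to 0.87, limma adjusted p = 0.84).

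JUND, the JUN family member that most cells express without a stimulus, lies on chromosome 19 (18390504 to 18392432, minus strand). It was at 76.8 and 118.1 RPM in shSc replicates 1 and 2, 130.1 RPM in replicate 3, and 103.8, 98.2 and 112.3 RPM in NPMKD. All NPMKD values lay within the shSc range. The log2 fold change was 0.13 (standard error 0.26, 95% confidence interval -0.47 to 0.74, limma adjusted p = 0.944).

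JUN, on chromosome 1 (59242517 to 59249720, minus strand), encodes c-Jun, the target of the JNK kinases. It had 7 reads in shSc replicate 1 and 2 reads in shSc replicate 2, while NPMKD had 5, 0 and 9 reads, which is at most 0.493 RPM in any of these 5 libraries. The count of 0 in NPMKD replicate 2 allows up to 0.256 RPM. In shSc replicate 3, JUN had 459 reads, or 51.9 RPM, which is 105 times the highest of the other libraries. JUN was therefore at or near the detection limit in both groups of 5 libraries, and no difference between them was detectable at this depth.

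**Figure D2:**
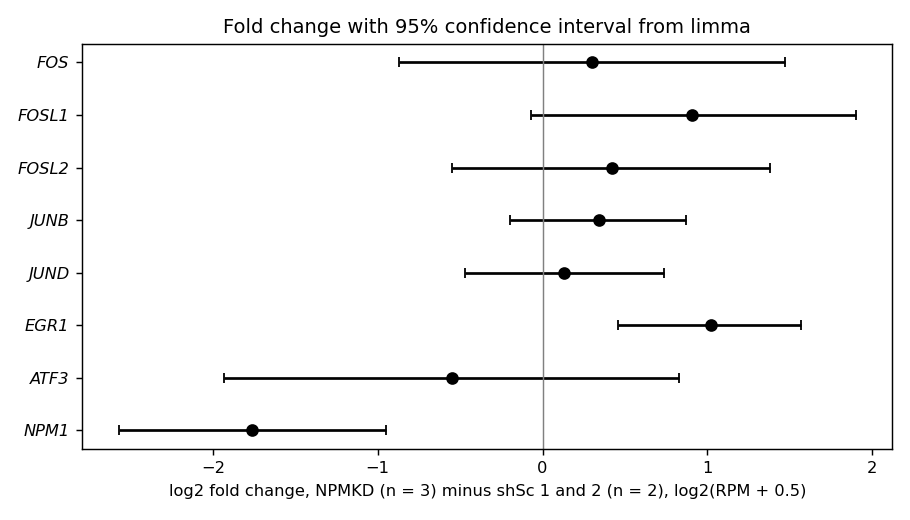
Log2 fold change (NPMKD, n = 3, minus shSc replicates 1 and 2, n = 2, on log2(RPM + 0.5)) of the 7 tested members and of NPM1, with the 95% confidence interval from limma. The interval of EGR1 (0.46 to 1.57) and that of NPM1 lie to one side of 0, and those of the other 6 members include 0.

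Among the tested members, ATF3 had the widest spread over the 5 libraries on the log2 scale. It is a stress-induced factor of the ATF family that pairs with JUN and other zipper proteins and is itself a target of ATF4. It lies on chromosome 1 (212738676 to 212794119, plus strand, 4 exons). ATF3 was at 59.1 and 27.6 RPM in shSc replicates 1 and 2, 16.7 RPM in replicate 3, and 18.9, 17.1 and 63.3 RPM in NPMKD. The highest library was NPMKD replicate 3 and the next shSc replicate 1, so that the groups overlapped. Mean ATF3 was 43.3 ± 22.3 RPM for the tested shSc libraries (SD, n = 2) and 33.1 ± 26.2 RPM for NPMKD (SD, n = 3), and the log2 fold change was -0.55 (standard error 0.59, 95% confidence interval -1.93 to 0.83, limma adjusted p = 0.91). Single libraries set the size of this value, which was -0.0089 without shSc replicate 1, -1.09 without shSc replicate 2 and -1.15 without NPMKD replicate 3, and 0.34 with shSc replicate 3 in place of replicate 1.

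The 3 genes with the profile most like that of ATF3 were PHGDH, SESN2 and ASNS, at a root mean square difference of 0.097, 0.098 and 0.126 over 5 libraries. All 3 are among the 12 genes of the ATF4 stress list, which holds genes that ATF4 switches on when amino acids are short or unfolded protein accumulates. PHGDH, the first enzyme of serine synthesis, was at 166.1 and 84.4 RPM in shSc replicates 1 and 2, 64.0 RPM in replicate 3, and 66.1, 54.5 and 193.7 RPM in NPMKD. SESN2, a stress-induced regulator of mTORC1, was at 162.7 and 82.0 RPM in shSc replicates 1 and 2, 45.7 RPM in replicate 3, and 56.5, 58.7 and 198.7 RPM in NPMKD. ASNS, which makes asparagine, was at 561.2 and 221.2 RPM in shSc replicates 1 and 2, 113.3 RPM in replicate 3, and 160.1, 138.7 and 460.2 RPM in NPMKD. As for ATF3, shSc replicate 1 and NPMKD replicate 3 were the 2 highest libraries of each. These 3 were picked for this pattern, so the shared high libraries are a description. Other ATF4 list genes ranked lower by this measure: TRIB3 was at rank 18, ATF4 itself at 302 and DDIT4 at 7937 of the 9430 genes other than ATF3. NPMKD replicate 3 (18981902 reads) and shSc replicate 1 (14187046 reads) were also the libraries read most deeply, and the part of depth in these profiles was not tested.

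**Figure D3:**
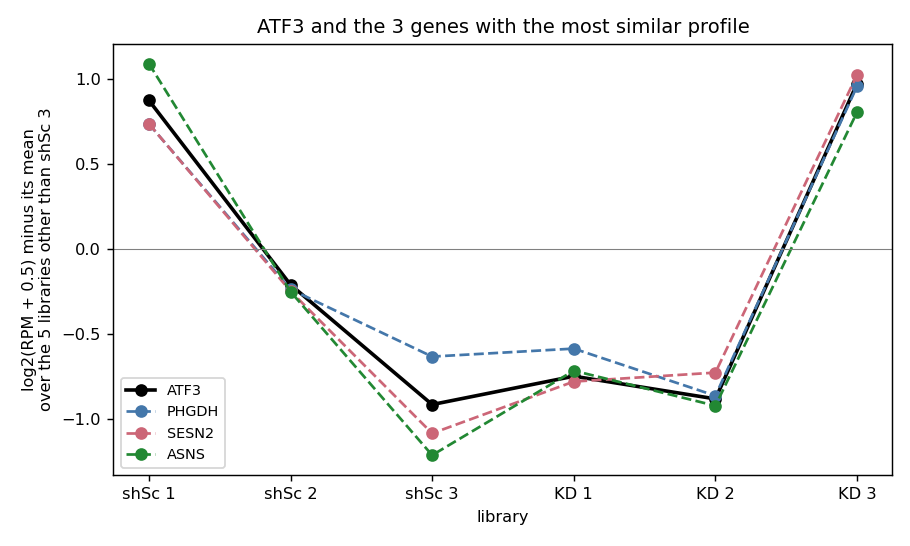
ATF3 (black) and PHGDH, SESN2 and ASNS across the 6 libraries, as log2(RPM + 0.5) minus each gene's mean over the 5 libraries other than shSc replicate 3 (KD, NPMKD). The 4 lines are high in shSc replicate 1 and NPMKD replicate 3 and low in NPMKD replicates 1 and 2; shSc replicate 3, which did not enter the measure of likeness, is low in all 4.

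Profiles of the other variable members were also compared. For FOS, which was low in shSc replicate 2, the nearest genes were MRS2P2, a pseudogene, ADK (adenosine kinase) and YES1 (a SRC family kinase), at differences of 0.075, 0.110 and 0.126. YES1 was at 216.7 and 85.3 RPM in shSc replicates 1 and 2 and 184.5, 140.5 and 198.1 RPM in NPMKD. For FOSL1 they were DCBLD2, a membrane receptor, PTS, an enzyme of tetrahydrobiopterin synthesis, and ZNF252P, a pseudogene, at 0.122, 0.131 and 0.143. PTS was at 18.1 and 23.8 RPM in shSc replicates 1 and 2 and 47.3, 50.0 and 26.1 RPM in NPMKD. The third NPMKD library was again near shSc, which follows from the choice by likeness to FOSL1. FOSL2, JUNB and JUND varied by an SD under 0.5 on the log2 scale and were given no such neighbors.

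IER2, a short-lived nuclear protein of the immediate early response, was close to the detection limit. It lies on chromosome 19 (13261225 to 13265725, plus strand, 2 exons) and had 4, 7 and 4 reads in shSc replicates 1 to 3 and 1, 3 and 15 reads in NPMKD replicates 1 to 3. The highest level was 0.790 RPM, in NPMKD replicate 3, the most deeply read library. IER2 was below the filter, and its groups were not tested.

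shSc replicate 3 differed from the other libraries most in JUN. JUN, JUNB, JUND and FOS were higher there than in all 5 other libraries. Relative to the mean of shSc replicates 1 and 2, the log2 value in shSc replicate 3 differed by 6.02 for JUN, 0.65 for JUNB and 0.45 for JUND, the 3 members with 1 exon. The same difference was 1.17 for FOS, 0.50 for FOSL1, 0.03 for EGR1 and -1.25 for ATF3, which have more than 1 exon, so JUN stood far from the rest and the smaller differences of the 2 groups of members overlapped.

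Across the panel, genes with 1 exon were higher in this library than genes with more exons. Of 714 single-exon genes under 1 RPM in each of the other 5 libraries, as JUN was, 86.8% reached 10 RPM in shSc replicate 3, with a median of 58.8 RPM. Of 7052 such genes with more than 1 exon, 7.81% did, with a median of 0 RPM. Among tested genes the median difference of shSc replicate 3 from shSc replicates 1 and 2 was 2.83 on the log2 scale for 351 single-exon genes and -0.21 for 10483 others. An amplicon in a gene without introns has the same sequence in cDNA and in genomic DNA. The RNA was treated with DNaseI per the study's methods, and the part of genomic DNA in the JUN, JUNB and JUND values was not tested.

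Markers of other blood and tissue cells were also higher in that library. B cell markers summed to 20.6 RPM in shSc replicate 3 and to at most 0.916 RPM elsewhere, with MS4A1 and PAX5 at 0 in all 6 libraries. T and NK cell markers summed to 111 RPM against 19.1 to 90.2 RPM (CD8A at 0), monocyte and macrophage markers to 227 RPM against 58.1 to 91.8 RPM (CD163 at 0), and fibroblast markers to 93.5 RPM against 13.9 to 54.8 RPM. Epithelial markers, at 998 RPM, were within the range of the others (701 to 1550 RPM). The part of other cells in the JUN and JUNB values of shSc replicate 3 was not tested. In bulk RNA, fewer cells of a type and less RNA per cell cannot be told apart.

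**Figure D4:**
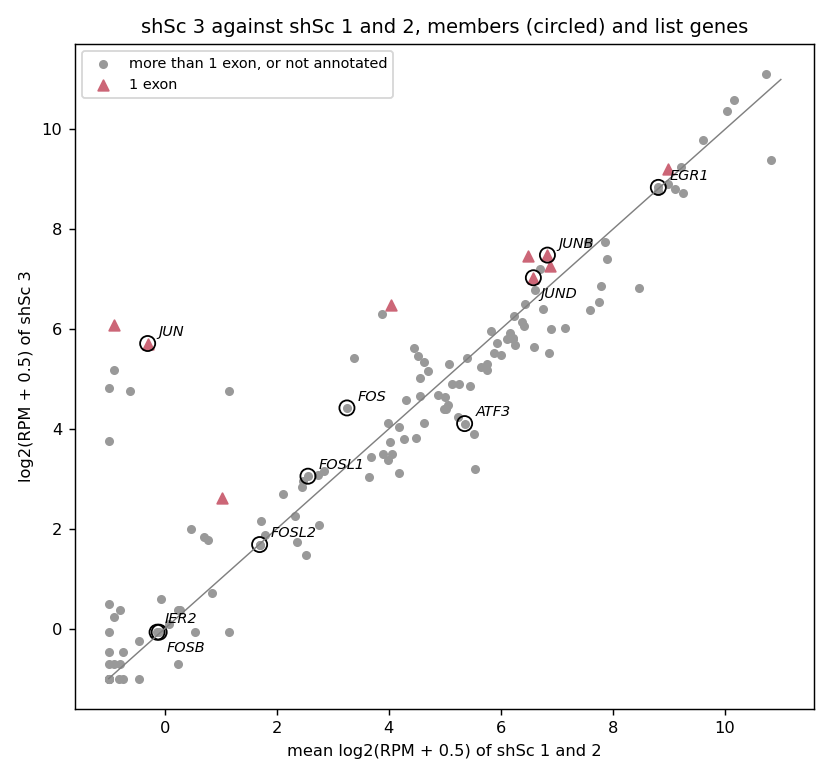
Log2(RPM + 0.5) in shSc replicate 3 against the mean of shSc replicates 1 and 2 for the members (circled and named) and the genes of the pathway lists; triangles have 1 exon, and the line marks equal values. JUN lies 6.02 above the line, JUNB and JUND lie a little above it, and EGR1, FOSB and IER2 lie close to it.

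Other genes of the pathway were counted in 9 lists with 127 distinct genes, 100 of them tested. None of the 100 passed with limma or edgeR, against 0.13% and 0.0952% of all tested genes. An unadjusted limma p under 0.05 was found for 6 of the 100, against 7.14% of all tested genes. DESeq2 called 1 of the 100, PLAU, against 1.64% of all tested genes. Among other immediate early transcription factors, 12 of 16 tested genes had a log2 fold change above 0, with a median of 0.34. IER5, a relative of IER2, had a log2 fold change of -0.05 (standard error 0.23) and MYC, the growth regulator, one of -0.24 (standard error 0.30). MYC was at 701.4 and 431.4 RPM in shSc replicates 1 and 2 and 556.9, 372.2 and 484.6 RPM in NPMKD, with overlap.

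Among immediate early genes that do not encode transcription factors, 8 of 15 were above 0, with a median of 0.00. ZFP36L2, which speeds the decay of AU-rich mRNA, had a log2 fold change of -0.10 (standard error 0.28), and MCL1, a survival factor of the BCL2 family, one of 0.13 (standard error 0.33). The genes named gave values on both sides of 0, each within 1 standard error of it.

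Upstream of the members, kinases and RAS proteins of the MAP kinase cascades had 11 of 19 values above 0 and a median of 0.05. NRAS was at 194.8 and 190.5 RPM in shSc replicates 1 and 2 and 202.2, 182.5 and 213.9 RPM in NPMKD. Its log2 fold change of 0.05 had a 95% confidence interval of -0.45 to 0.55.

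SRF, which binds CArG boxes, and its cofactors had 4 of 6 values above 0 and a median of 0.19. SRF had a log2 fold change of 0.14 (standard error 0.36), and ELK4, an ERK-responsive partner of SRF, one of 0.54 (standard error 0.28, limma adjusted p = 0.775). ELK4 was at 49.7 and 35.3 RPM in shSc replicates 1 and 2, 42.5 RPM in replicate 3, and 62.3, 50.9 and 72.6 RPM in NPMKD. It was higher in NPMKD without overlap in all 6 libraries, as were 9.55% of tested genes.

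Feedback inhibitors of MAP kinases and of EGR1 had 7 of 10 values above 0 and a median of 0.13. NAB1, a corepressor that binds EGR proteins, was at 40.9 and 34.5 RPM in shSc replicates 1 and 2, 29.3 RPM in replicate 3, and 52.5, 46.6 and 66.3 RPM in NPMKD. All NPMKD libraries were above all shSc libraries, as were those of 9.55% of tested genes. The log2 fold change of NAB1 was 0.53 (standard error 0.27, limma adjusted p = 0.764). SPRED2, an inhibitor of RAS signaling, had a log2 fold change of -0.10 (standard error 0.32).

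The other zipper partners of AP-1 had 5 of 9 values above 0 and a median of 0.04. ATF2 had a log2 fold change of 0.25 (standard error 0.32) and ATF4 one of -0.10 (standard error 0.35). ATF4 was at 769.9 and 488.2 RPM in shSc replicates 1 and 2 and 525.8, 431.0 and 833.8 RPM in NPMKD, again with shSc replicate 1 and NPMKD replicate 3 highest.

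Among textbook AP-1 targets, 2 of 6 values were above 0 and the median was -0.28. VIM (vimentin) had a log2 fold change of -0.01 (standard error 0.39). TIMP1, an inhibitor of matrix metalloproteinases, was at 488.5 and 525.7 RPM in shSc replicates 1 and 2, 477.4 RPM in replicate 3, and 652.3, 729.1 and 1224 RPM in NPMKD. Its log2 fold change was 0.72 (standard error 0.31, limma adjusted p = 0.699). PLAU, the urokinase gene, named after its values were seen, was at 22.8 and 10.3 RPM in shSc replicates 1 and 2, 9.95 RPM in replicate 3, and 3.45, 3.92 and 7.11 RPM in NPMKD. PLAU had a log2 fold change of -1.63 (standard error 0.47), and its adjusted p was 0.0363 from DESeq2 but 0.398 from limma.

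ATF4 stress genes, the list that held the genes most like ATF3, had 1 of 11 values above 0 and a median of -0.41. The mean log2 value of the list was 6.63 and 6.21 in shSc replicates 1 and 2, 5.59 in replicate 3, and 5.10, 5.28 and 7.06 in NPMKD, so that NPMKD replicate 3 was the highest library and NPMKD replicates 1 and 2 the lowest. DDIT4 (REDD1), an inhibitor of mTORC1, was at 2328 and 1417 RPM in shSc replicates 1 and 2, 668.8 RPM in replicate 3, and 174.3, 165.9 and 1345 RPM in NPMKD. Its log2 fold change was -2.42 (standard error 0.84, limma adjusted p = 0.573).

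Heat shock genes, a separate stress response, had 8 of 11 values above 0 and a median of 0.06. HSPA8, the constitutive HSC70 chaperone, was at 1278 and 1035 RPM in shSc replicates 1 and 2, 1534 RPM in replicate 3, and 2700, 2170 and 1931 RPM in NPMKD. HSPA8 was higher in NPMKD without overlap in all 6 libraries, as were 9.55% of tested genes. Its log2 fold change was 0.96 (standard error 0.27, limma adjusted p = 0.377). HSP90AA1 had a log2 fold change of -0.08 (standard error 0.25).

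**Figure D5:**
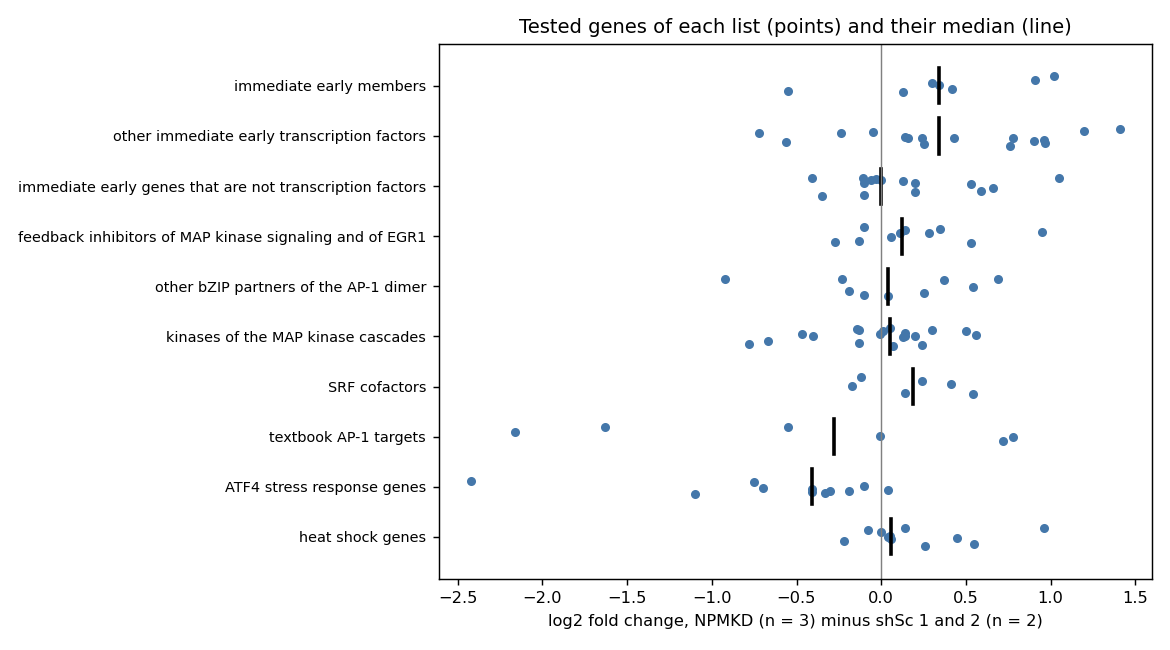
Log2 fold change (NPMKD minus shSc replicates 1 and 2) of each tested gene of the members and of the 9 other lists, 1 point per gene, with the list's median as a line. Medians run from -0.41 for the ATF4 stress genes to 0.34 for the members and the other immediate early transcription factors, and no gene shown passed with limma.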

How the data were processed

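RNA of K562 cells with shSc (3 libraries) and with shNPM300 (NPMKD, 3 libraries) was treated with DNaseI and measured by AmpliSeq on an Ion Proton, per the study's methods. Per the submitters' notes and the methods, the authors used Torrent Suite 4.4 and hg19, and deposited RPM per gene made with the AmpliSeqRNA plugin (version and filters: not given in the sources used). Whole reads were recovered from the steps between RPM values, and 100% of values came out whole to within 0.1 read. The 10 spike-in rows were 0 and were left out. Depth is given with the results, and floors cover counting error only.

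Means of shSc replicates 1 and 2 equalled the listed shSc means for 693 of 693 genes (within 0.001 RPM, or 0.001% if larger), against 2 and 0 for the other pairs. The main test was limma 3.58.1 (R 4.3.3) with a variance trend on log2(RPM + 0.5), over genes that reached 1 RPM in 2 or more of 5 libraries, Benjamini-Hochberg adjusted at 0.05. A pseudocount understates changes of low genes. edgeR 4.0.16 and DESeq2 1.42.0 were run on recovered reads. Other alternatives were sets with shSc replicate 3, pseudocounts of 0.1 and 1, a filter of 5 RPM or none, TMM, quantile normalization, no trend, a replicate block and each library left out, the lone shSc library then being assumed to vary like NPMKD. The main limma fit, edgeR and DESeq2 were checked on simulated data first, and the other alternatives were not.

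The members and lists were chosen with earlier results of these data known. Named genes were all members, any list gene that passed, the 2 most abundant tested genes of each list, NPM1, GAPDH, and the 3 genes of mean 5 RPM or more nearest in profile to each tested member with an SD of at least 0.5. Results for some list genes are not reported here. Coordinates and exons are from GENCODE on GRCh37 (18107 genes found by symbol, 1098 by Entrez ID and 1597 not found), exons being those of the transcript tagged as canonical. Promoters are from RefSeq.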

Additional observations from a re-analysis of the deposited data

Results flagged for a closer look

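Both values below come from shSc replicate 3, a library outside the main comparison, and stand above the level of the other shSc libraries.

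JUN was at 51.9 RPM in shSc replicate 3, against at most 0.493 RPM in the 5 libraries compared. JUNB was at 178.3 RPM in shSc replicate 3, against 129.3 RPM in the higher of the other shSc libraries and 147.9 RPM in the highest NPMKD library. Both genes have 1 exon. The log2 difference of shSc replicate 3 from the mean of shSc replicates 1 and 2 was 0.65 for JUNB. Its median over 351 tested single-exon genes was 2.83.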

How the results depend on the processing

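The limma count of 15 genes called in all rested on the settings. It was 3 with shSc replicate 3 added, 0 with that library in place of either other shSc library, 2 with no filter, 7 with a filter of 5 RPM, 26 after quantile normalization and 190 with DESeq2. Leaving out 1 library gave 0 to 5 (0 without shSc replicate 1 and 0 without shSc replicate 2). DESeq2 called 1 member (EGR1) and 1 textbook AP-1 target, against 1.64% of all tested genes. Log2 fold changes of EGR1 were 0.83 to 1.20 over 19 alternatives, with adjusted p from 0.000611 to 0.951. The median log2 fold change of all genes was -0.034 to 0.088 over the alternatives, against 0.006 in the main fit. FOSB, JUN and IER2, at 0 to 31 reads in the 5 libraries, were below the filter.

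Replicate numbers were shared by the groups, and whether they pair the samples was not tested. Over 6 libraries, the correlation of deviations between same-numbered libraries was 0.43, 0.308 and 0.041 for replicates 1, 2 and 3. Between different numbers it was -0.367 for shSc replicate 1 with NPMKD replicate 2 and -0.343 for shSc replicate 2 with NPMKD replicate 1. The other pairs with different numbers were at -0.127 to 0.098. With a replicate block in 5 libraries, to which NPMKD replicate 3 adds nothing, 1698 genes (14.7%) were called, and 3 members: EGR1 (1.04), ATF3 (-1.15) and FOSL1 (1.22). In that fit 4 other immediate early transcription factors, 1 other immediate early gene, 1 kinase, 3 AP-1 targets, 7 ATF4 stress genes and 2 heat shock genes were also called. With a replicate block in 6 libraries 0 genes were called.

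Log2 fold changes turned sign for some named genes that had not passed, ATF3, FOSL2 and JUNB among them, and the cause was not tested. With shSc replicate 3 added the values were FOS -0.088, JUND -0.015, ZFP36L2 0.074, SPRED2 0.029 and ATF4 0.080. With shSc replicate 3 in place of 2 the values were FOS -0.71, MCL1 -0.048 and ATF4 0.0033. With the replicate block in 6 libraries the values were FOS -0.088, JUND -0.015, ZFP36L2 0.074, SPRED2 0.029 and ATF4 0.080. With shSc replicate 3 in place of 1 the values were JUNB -0.083, JUND -0.24, ATF3 0.34, MYC 0.080, ZFP36L2 0.35, SPRED2 0.21 and ATF4 0.33. With the replicate block in 5 libraries the values were MCL1 -0.053 and NRAS -0.0042. With edgeR the value was VIM 0.087. With DESeq2 the value was VIM 0.076. Leaving out 1 library at a time gave ranges across 0: FOS -0.55 to 1.15, FOSL2 -0.056 to 0.89, JUND -0.17 to 0.44, IER5 -0.17 to 0.073, MYC -0.59 to 0.11, ZFP36L2 -0.48 to 0.29, MCL1 -0.32 to 0.57, SPRED2 -0.33 to 0.12, ATF2 -0.22 to 0.71, ATF4 -0.42 to 0.23, NRAS -0.0042 to 0.11, SRF -0.27 to 0.56, VIM -0.39 to 0.21 and HSP90AA1 -0.32 to 0.15. It moved others by over 1.5 times from their main value without a change of sign: ATF3 -1.15 to -0.0089, FOSL1 0.58 to 1.25, JUNB 0.15 to 0.52, ELK4 0.30 to 0.79 and TIMP1 0.44 to 0.90. DDIT4 ranged from -3.41 to -1.91 and NAB1 from 0.39 to 0.65.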

Other observations

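Among the 127 other pathway genes, 5 had at least 10 RPM in shSc replicate 3 and under 1 RPM in each other library, as JUN did. They included DUSP2 (35.7 RPM), a MAP kinase phosphatase, NPAS4 (27.8 RPM), an immediate early factor of neurons, MMP9 (26.7 RPM), a matrix metalloproteinase, and PLK2 (13.0 RPM), a polo-like kinase, all chosen here after seeing their values. Over the panel, 1342 genes met the same description.

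The relatives of EGR1, chosen after seeing their values, were low. EGR2, which NAB corepressors also bind, was at 0.423 and 0.718 RPM in shSc replicates 1 and 2, 0.565 RPM in replicate 3, and 1.01, 1.53 and 2.42 RPM in NPMKD. EGR2 was higher in NPMKD without overlap in all 6 libraries, as were 9.55% of tested genes. Its log2 fold change was 0.97 (standard error 0.44, limma adjusted p = 0.734). EGR3 was at 1.13 and 0.399 RPM in shSc replicates 1 and 2, 0.792 RPM in replicate 3, and 1.01, 0.512 and 5.37 RPM in NPMKD, where NPMKD replicate 3 alone was high.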
